A study of Saccharomyces cerevisiae with 43 samples.

Results

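The genes described here encode proteins of the small-subunit (SSU) processome of the budding yeast Saccharomyces cerevisiae and factors that join it to begin assembly of the 40S ribosomal subunit. The 50 genes were chosen by name and function, not by their measured values, though earlier results of these data were known. They were found by locus tag. All 50 have a row on the second of the 2 array designs used in the study, and 49 have a row on both designs, since SAS10 was measured on the second design alone. They were read against 5604 rows on the first design and 6868 rows on the second, of which 5569 rows are shared.

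The SSU processome is a large ribonucleoprotein that forms in the nucleolus on the precursor ribosomal RNA while it is still being transcribed. It folds the part that becomes the small-subunit RNA, and it brings in the U3 small nucleolar RNA, which pairs with the precursor at the sites where it is cut. Its proteins arrive as preformed blocks. The UTP-A and UTP-B complexes bind early and help to bring in the U3 particle, the Mpp10 complex holds the U3 pairing, the Bms1 GTPase and RNA helicases drive the later remodelling, and other factors bind, modify or cut the RNA. In yeast these genes belong to the large set of ribosome biogenesis genes, whose transcripts fall together when stressed cells slow their growth.

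The members comprised 7 genes of UTP-A (UTP4, UTP5, UTP8, UTP9, UTP10, UTP15 and NAN1), 6 of UTP-B (PWP2, DIP2, UTP6, UTP13, UTP18 and UTP21) and 5 of the U3 particle (NOP1, NOP56, NOP58, SNU13 and RRP9). There were 3 genes of the Mpp10 complex (MPP10, IMP3 and IMP4), 2 of UTP-C (UTP22 and RRP7), BMS1 with its partner RCL1, and 4 RNA helicases (ECM16, ROK1, DBP8 and RRP3). The remainder were the Nop14, Noc4 and Emg1 group, the pair ENP2 and BFR2, and 16 other factors, 15 of them on the first design.

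Transcript levels were measured on 2-colour spotted arrays, and each value is a log2 ratio of the stressed sample over a reference RNA hybridised to the same array. On the first design (32 arrays), strain BY4741 was grown in YPD for 3 doublings. Naive cells received 0.4 mM H2O2 for 10, 20, 30 or 40 min and were read against untreated cells (3, 3, 2 and 2 arrays). Pretreated cells first received 0.7 M NaCl for 60 min and recovered for 240 min in YPD, then received the same H2O2 dose, and were read against pretreated and recovered cells before H2O2 (3, 3, 2 and 2 arrays). Cells in 0.7 M NaCl at 15, 30, 45 and 60 min were read against untreated cells (1, 2, 2 and 1 arrays), as were cells 240 min into recovery from NaCl or from a mock treatment (3 arrays each). The treatment protocol calls the naive H2O2 cells mock cells, but their source names do not. Whether naive cells had received the mock treatment before H2O2 could thus not be settled from the labels. The second design (11 arrays, 1 for each condition, cells grown for 7 or more generations) compared BY4741 with BY4741 lacking NUP42, a nuclear pore protein that takes part in mRNA export.

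The arrays held values for 4446 to 5575 genes on the first design and for 6500 to 6809 on the second. Of the 1568 member values possible on the first design 38 were missing, 27 members had a value on every array, and single arrays held 43 to 49 members. Array medians over all genes lay between −0.16 and 0.08. Replicate 3 of the 10 min and 20 min H2O2 groups came from print series YG8 and all other first-design arrays from YG9, so values within each series are given where they bear on a result. A ratio gives a transcript's share of the labelled RNA in a culture, so fewer cells with a transcript and less of it in each cell cannot be told apart. In the strain lacking NUP42 the NUP42 ratio was −5.36 in the unstressed array and −4.75 in the NaCl array, both read against BY4741 RNA. Unless another test is named, adjusted p-values are from limma fitted over all 32 first-design arrays and adjusted by Benjamini-Hochberg over all genes tested, and a gene was called lower or higher at an adjusted p under 0.05. Background shares of all genes and the SE of each estimate are from this fit. Such an SE rests on a gene's spread over all groups, not on the arrays of a single group. Counts from other fits, or with arrays left out, are given without such a share.

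**Figure D1:**
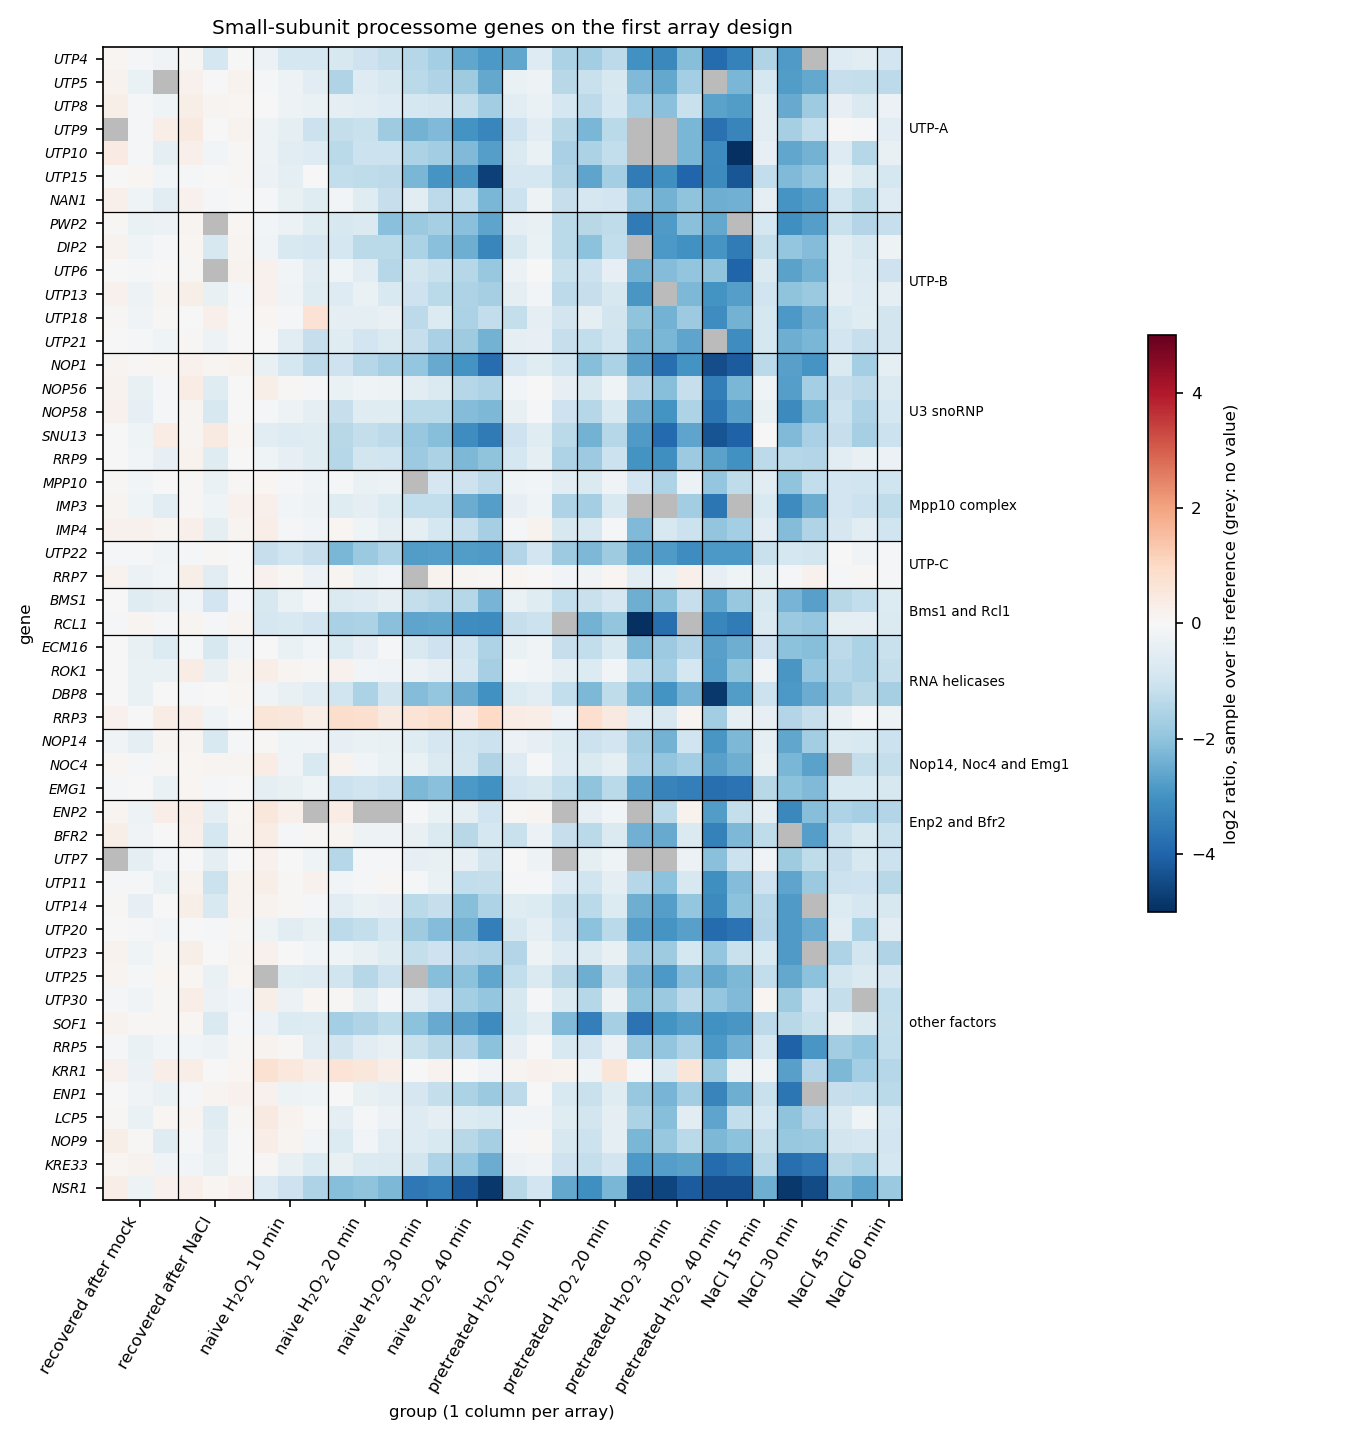
Colour gives the log2 ratio of each of the 49 members (rows, ordered by complex) on each of the 32 first-design arrays (columns, ordered by group), with missing values in grey. The recovered arrays are pale, the NaCl 30 min arrays and the late H2O2 arrays are dark blue for nearly all members, and RRP7 is pale throughout.

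In naive BY4741 the processome transcripts fell in steps that spread from a few genes at 10 min to nearly the whole set at 40 min. At 10 min 7 of 49 members were lower and none was higher (14.3% lower, against 18.6% of the 5419 genes tested), with a member median of −0.19 against −0.04 over all genes. At 20 min 25 of 48 were lower, against a background of 29.3% lower, and 1 was higher, against 25.4% higher. At 30 min 35 of 46 were lower (background 29.4%) and 1 was higher (background 25.8%). At 40 min 45 of 49 were lower (91.8%, against 33.4% of all genes) and 1 was higher (background 28.0%). The member medians at the last 3 times were −0.60, −1.23 and −1.80, while the medians over all genes tested stayed between −0.08 and −0.06. Without replicate 3 of that group the count at 10 min was 1, and without replicate 2 it was 3. It was 2 or 4 without the first or either other replicate of every group. At 30 min the count of 36 called in either direction was 22 without the first and 19 without the second replicate of every group.

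The 7 genes called lower at 10 min were UTP22, NSR1, NOP1, SNU13, UTP9, DIP2 and UTP21. Their share, 14.3% of the members tested, was below the 18.6% of all genes tested. UTP22, a subunit of UTP-C, read −1.14, −1.0 and −1.16 on the 3 arrays at 10 min (log2 ratio −1.10 ± 0.15, SE; adjusted p = 8.8e-06). It reached −2.78 and −2.83 at 40 min and so was 6.99-fold lower. NSR1, the yeast relative of nucleolin and a nucleolar RNA-binding protein, read −0.63, −1.03 and −1.53 at 10 min and −4.28 and −4.83 at 40 min. Its arrays at each later time lay below all of those at the time before, and at 40 min it was 23.5-fold lower (−4.56 ± 0.35, SE; adjusted p = 3.3e-10), the third lowest of 5273 genes tested. NOP1, the fibrillarin methyltransferase of box C/D particles, read −0.39, −0.88 and −1.30 at 10 min and −2.97 and −3.82 at 40 min. All 7 genes called at 10 min were also lower at 40 min, where 45 of 49 members were. All 7 were lower at 10 min in pretreated cells too, where 28 of 49 members were. The same overlaps over all genes are not given here.

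A further 18 members were first called lower at 20 min, 11 at 30 min and 9 at 40 min. The last 9 were BFR2, IMP4, LCP5, MPP10, NOC4, NOP56, ROK1, UTP11 and UTP7. A time at which a gene could not be tested counts here as not called. This applies to MPP10 at 30 min, where its single array with a value read −0.84. MPP10, the scaffold of its complex, read −0.10, −0.34 and −0.31 at 20 min and −1.05 and −1.30 at 40 min. IMP4, a partner of Mpp10 in the same complex, read 0.08, −0.23 and −0.47 at 20 min and −1.16 and −1.67 at 40 min. Both genes were thus near their reference level when UTP22 and NSR1 had already fallen on every array. Of 49 members, 47 had their lowest mean at 40 min, the last time measured.

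The complexes differed in their medians over the same naive course. At 20 min, where 29.3% of all genes were lower, all 7 UTP-A genes, the earliest binders of the precursor, were lower, with a median of −1.01, and 4 of the 5 genes of the U3 particle were lower, with a median of −1.11. The counts were 3 of 6 for UTP-B (median −0.74), 1 of 3 for the Mpp10 complex (median −0.25) and 1 of 4 for the helicases (median −0.22), so that the shares of the last 2 lay near that of all genes. At 40 min the medians were −2.48 for UTP-A, −2.19 for the U3 particle, −1.87 for UTP-B and −1.42 for the Mpp10 complex. The Nop14, Noc4 and Emg1 group had a median of −1.21 and the helicases of −1.26. The pair BMS1 and RCL1 had medians of −1.18 at 20 min and −2.50 at 40 min, the lowest of the groups at both times. UTP-C had medians of −1.01 and −1.36 at these times. The pair ENP2 and BFR2 had a median of −0.94 at 40 min. Within the U3 particle NOP56, a core box C/D protein, read −0.32, −0.23 and −0.26 at 20 min, all above the highest NOP1 array at that time, −1.03. No test of the differences between complexes was made.

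Among the members with large changes at 40 min, UTP15, a UTP-A subunit, read −2.90 and −4.66, SNU13, the protein that binds the kink turn of U3, read −3.09 and −3.54, and RCL1, the partner of Bms1, read −3.11 and −3.16. EMG1, a methyltransferase that modifies the small-subunit RNA, read −2.87 and −3.02. Each of these genes was below −2.8 on both arrays. UTP9, a UTP-A subunit, read −2.97 and −3.28. Not all of UTP-A fell as far, since UTP8 and NAN1 had means of −1.46 and −1.76, above the member median of −1.80. UTP10, a large UTP-A protein, read −2.19 and −2.76, and PWP2, a UTP-B subunit, read −2.08 and −2.65.

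Exactly 4 members were never called lower in the naive course, namely ENP2, KRR1, RRP3 and RRP7. Of these, ENP2 could not be tested at 20 min and RRP7 could not be tested at 30 min. RRP3, a DEAD-box helicase, was the single member called higher. It read 0.89, 0.81 and 0.45 at 20 min (0.72 ± 0.23, SE; adjusted p = 0.012), 0.67 and 0.80 at 30 min, and 0.40 and 1.01 at 40 min (0.70 ± 0.28; adjusted p = 0.035). Every naive array was above 0 for RRP3, although without naive 40 min replicate 2 the 40 min value was 0.40 with an adjusted p of 0.45. KRR1, a nucleolar assembly factor, read 0.75, 0.54 and 0.33 at 10 min and −0.02 and −0.17 at 40 min, and neither value passed (adjusted p = 0.098 and 0.8). RRP7, the partner of UTP22 in UTP-C, read 0.12 and 0.04 at 40 min (adjusted p = 0.73).

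**Figure D2:**
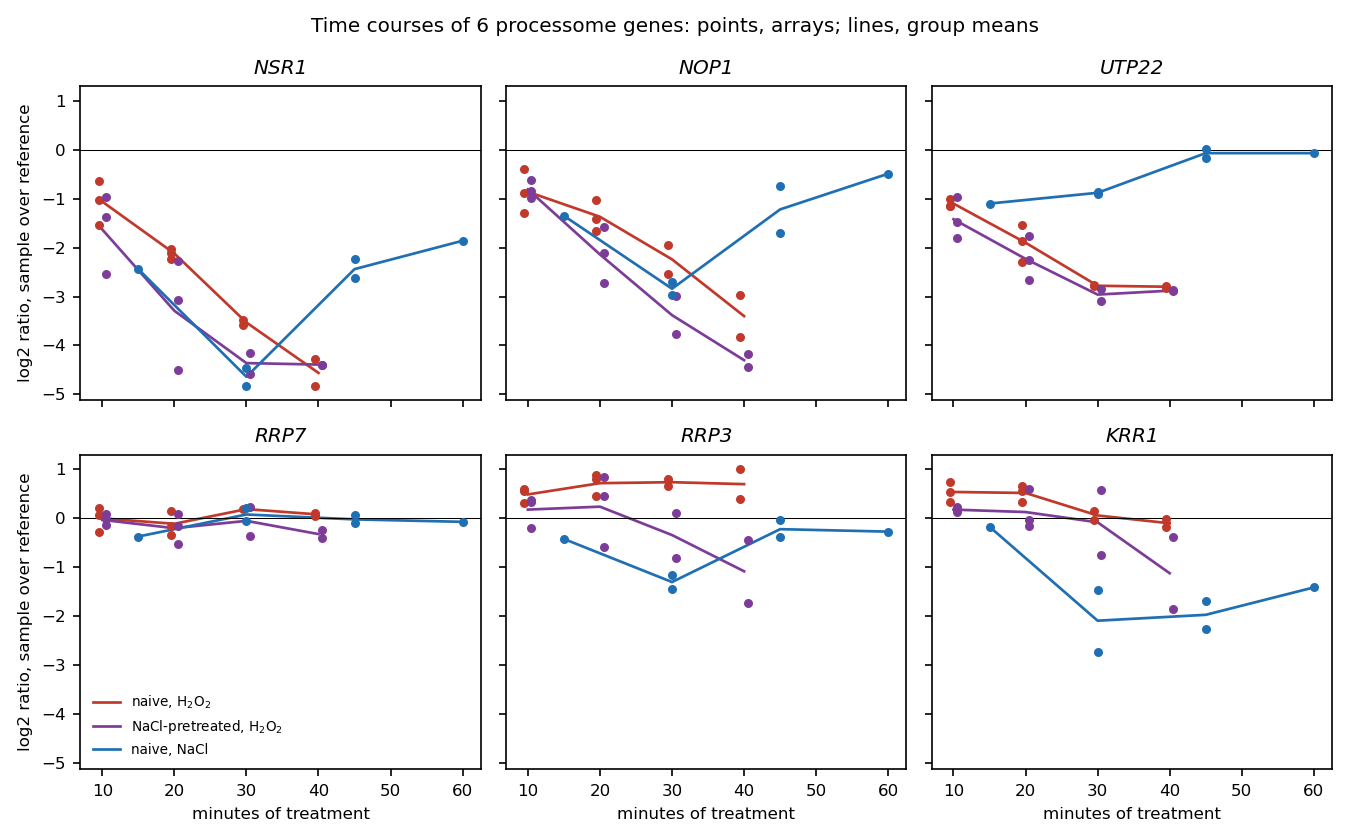
Log2 ratios over the reference (vertical axis) against minutes of stress (horizontal axis) for 6 members (NSR1, NOP1, UTP22, RRP7, RRP3 and KRR1), with a point for each array and a line through the group means for naive H2O2, pretreated H2O2 and NaCl. NSR1 falls below −4 in all 3 courses, UTP22 falls to −2.80 in naive H2O2 at 40 min but reads −0.88 in NaCl at 30 min, and RRP7 stays near 0.

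In cells that had met NaCl and recovered, H2O2 was followed by lower processome transcripts at every time measured. At 10 min 28 of 49 members were lower (57.1%, background 23.9%), at 20 min 44 of 49 (89.8%, background 34.0%), at 30 min 39 of 43 (background 32.7%) and at 40 min 44 of 45 (97.8%, background 33.5%). No member was higher at any of these times. The member medians were −0.67, −1.42, −2.08 and −2.75, against −0.10, −0.10, −0.04 and −0.04 over all genes tested. The count at 10 min was 10 without replicate 3 of that group, 12 without the first or the third replicate of every group, and 14 when the fit used only the arrays of that group.

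NSR1 read −1.38, −0.96 and −2.54 at 10 min, −3.08, −2.28 and −4.51 at 20 min, −4.58 and −4.15 at 30 min, and −4.40 and −4.39 at 40 min. Its arrays at 30 and 40 min overlapped, so no further fall was seen after 30 min. NOP1 went on falling, from −3.77 and −2.99 at 30 min to −4.43 and −4.17 at 40 min. UTP10 read −3.13 and −5.67 at 40 min (mean −4.40 ± 0.37, SE; adjusted p = 2.6e-09) and had the lowest member mean there, with its 2 arrays far apart. The SD of these 2 arrays was 1.80, which the SE from all groups does not show. UTP20, a large scaffold protein, had a mean of −3.77 at 40 min, and DBP8, an RNA helicase, had −3.82.

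ENP2, KRR1, RRP3 and UTP7 were first called lower at 40 min in pretreated cells, and no member was first called at 30 min. UTP7 could not be tested at 30 min, where its single array with a value read −0.31. RRP3 read −1.72 and −0.45 at 40 min (−1.08 ± 0.28, SE; adjusted p = 0.0021) and KRR1 read −1.86 and −0.38 (−1.12; adjusted p = 0.0028). Replicate 1 was the lower array for both genes. RRP7 was the member that never passed, at −0.41 and −0.23 at 40 min (adjusted p = 0.15). The UTP-A median at 40 min was −3.57 over the 6 genes tested, that of the U3 particle −3.18 and that of UTP-B −2.94 over 4 genes. The members kept a similar order in the naive and the pretreated course, with a Spearman correlation of their means of 0.752 at 10 min (49 genes), 0.884 at 20 min (48 genes), 0.909 at 30 min (40 genes) and 0.822 at 40 min (45 genes). These correlations are across genes of one response programme measured with the same probes, so the genes are not independent points.

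The study's central comparison sets the H2O2 response of pretreated cells against that of naive cells, each relative to its own state before H2O2. The member medians were lower in pretreated cells at all 4 times, by −0.39 at 10 min, −0.79 at 20 min, −0.91 at 30 min and −0.89 at 40 min, while the medians over all genes tested lay between −0.07 and −0.02. Few single genes passed. None of 49 members was lower at 10 min by limma (0.0382% of all genes were), with 8 at an unadjusted p under 0.05, and none was at 10 min under any of the 7 other fits. At 20 min 2 of 48 were lower (background 0.736%), at 30 min 4 of 40 (background 6.26%) and at 40 min 13 of 45 (28.9%, background 9.5%). No member was higher at any time.

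At 20 min the called genes were SOF1 and EMG1. SOF1, a processome protein, read −3.42, −1.67 and −3.68 in pretreated cells and −1.69, −1.49 and −1.26 in naive cells (difference −1.44 ± 0.40, SE; adjusted p = 0.045), so that 1 pretreated array lay within the naive range. EMG1 read −2.01, −1.35 and −2.64 against −1.08, −0.98 and −1.07 (−0.96 ± 0.21; adjusted p = 0.016), with no overlap. At 30 min KRE33, the RNA acetyltransferase of the small-subunit RNA, read −2.75 and −2.67 in pretreated cells against −0.93 and −1.53 in naive cells (−1.48; adjusted p = 0.031). EMG1 read −3.33 and −3.42 against −2.23 and −2.10 (−1.21 ± 0.25, SE; adjusted p = 0.0082). NOC4 differed by −1.29 (adjusted p = 0.024) and SNU13 by −1.24 (adjusted p = 0.042). The pretreated arrays lay below the naive ones for all 4 genes called at 30 min, as for 33 of 40 members and 31.1% of all genes tested. The same arrays gave these calls, so the lack of overlap adds no separate support.

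At 40 min the calls covered all 3 genes of the Nop14, Noc4 and Emg1 group, 3 of the 4 helicases, 2 of 6 UTP-A genes, 1 of 4 UTP-B genes, 1 of 5 genes of the U3 particle and 2 of 15 other factors. The 5 with the largest differences were UTP10, RRP3, BFR2, NOP14 and KRE33. RRP3 was above its reference in naive cells (0.40 and 1.01) and below it in pretreated cells (−1.72 and −0.45), a difference of −1.79 ± 0.40 (SE; adjusted p = 0.005). NOP14, which binds Emg1 and Noc4, read −2.90 and −2.26 against −0.99 and −1.09 (−1.54; adjusted p = 0.0072). KRE33 read −3.85 and −3.65 against −1.95 and −2.49 (−1.53; adjusted p = 0.018). UTP10 differed by −1.92 ± 0.53 (SE; adjusted p = 0.02) and BFR2 by −1.68 (adjusted p = 0.039).

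Some members that were already low in naive cells had close values in both conditions at 40 min. NSR1 differed by 0.16 ± 0.49 (SE; adjusted p = 0.88) at 40 min, after array values of −3.08, −2.28 and −4.51 against −2.11, −2.02 and −2.23 at 20 min. UTP22 differed by −0.07 ± 0.26 (SE; adjusted p = 0.9) at 40 min. SOF1, called at 20 min, read −3.02 and −2.92 against −2.70 and −3.13 at 40 min. The arrays of the 2 conditions overlapped for SOF1 and NSR1 at that time, but not for NOP1, at −4.43 and −4.17 against −2.97 and −3.82. Every pretreated array lay below every naive array for 15 of 49 members at 10 min (9.6% of all genes tested), 21 of 48 at 20 min (9.8%), 33 of 40 at 30 min (31.1%) and 35 of 45 at 40 min (31.2%).

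**Figure D3:**
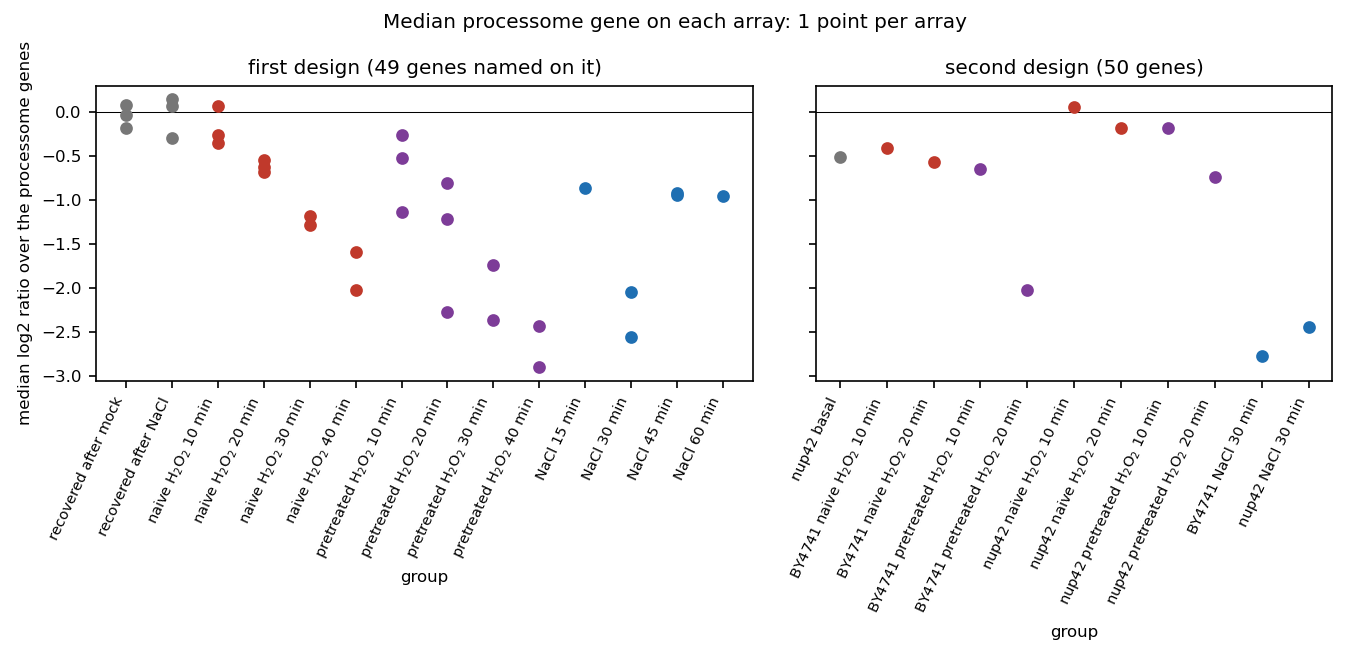
Each point is the median log2 ratio of the members on 1 array (vertical axis), by group (horizontal axis), on the first design (left) and the second (right), in grey for cells without stress, red for naive and purple for pretreated cells in H2O2, and blue for NaCl. On the first design at 20 min the 3 pretreated arrays (−1.22, −0.81 and −2.27) lie below the 3 naive arrays (−0.63, −0.55 and −0.68), and the lowest is the array of print series YG8.

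Taken array by array, the member medians at 10 min were 0.06, −0.27 and −0.36 in naive and −0.53, −0.26 and −1.14 in pretreated cells, which overlap (exact permutation test, two-sided, p = 0.3, n = 3 and 3). At 20 min they were −0.62 ± 0.07 and −1.43 ± 0.75 (SD, n = 3 and 3) with no overlap, and the exact permutation p was 0.1, the smallest that 3 against 3 arrays allow. At 30 min the medians were −1.18 and −1.29 against −2.36 and −1.74, and at 40 min −1.59 and −2.03 against −2.90 and −2.43. The exact permutation p was 0.333 at both of these times, the smallest that 2 against 2 arrays allow.

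The size of this difference varied with print series, and array spread was not the same in the 2 conditions. At 10 and at 20 min each condition had 2 arrays of YG9 and 1 of YG8. Within series YG9 the median member difference was −0.29 at 10 min, with 48 of 49 members below 0, and −0.50 at 20 min, with 44 of 49 below 0 (2 arrays per condition). Within YG8 it was −0.68 at 10 min, with 42 of 46 below 0, and −1.48 at 20 min, with all 43 below 0 (1 array per condition). The direction was thus the same in both series and the size was larger in YG8. With print series as a block 15 members were called at 20 min and 10 at 30 min, with no background share given for that fit. The SD over all genes on an array was 1.05, 1.01 and 1.38 in pretreated against 1.01, 0.982 and 1.10 in naive cells at 20 min, and 1.44 and 1.46 against 1.26 and 1.35 at 40 min. With the spread of all arrays equalised, the median member differences at 20, 30 and 40 min were −0.45, −0.43 and −0.45, and no member was called at any of these times. The part of array spread in this result was not tested further.

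Single arrays decided many of these counts. At 40 min the count was 1 without naive replicate 1, 8 without naive replicate 2 and 2 without pretreated replicate 1, and 0 without the first replicate of every group. At 20 min it was 26 without pretreated replicate 2, the pretreated array with the smallest change, with no background share given for that fit. At 20 min it was 0 or 1 without any other single array of the comparison. At 30 min it was 0 without naive replicate 1 or 2, 1 without pretreated replicate 1 and 10 without pretreated replicate 2. A fit of only the arrays of the comparison called no member at 20, 30 or 40 min.

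A related question is whether the level reached under H2O2 was itself lower in pretreated cells, once the small offset of recovered cells from untreated cells is added. The median level difference over the members was −0.41 at 10 min and −0.79 at 20 min. No member passed at either time by limma, against 0.0% of all genes lower at 10 min and 0.0189% at 20 min, with 5 and 21 members at an unadjusted p under 0.05. With print series as a block 16 members were called at 20 min, and 11 were without pretreated 20 min replicate 2. The share of all genes called in these fits is not given, so these counts have no background.

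The fall between successive times was tested within each course. From 10 to 20 min the naive member median moved by −0.48 and 1 of 48 members was called, UTP22 (background 0.937%). In pretreated cells it moved by −0.73 and 10 of 49 were called (20.4%, background 2.68%). The 10 and 20 min arrays of a replicate share a slide, and with replicate as a block 2 naive and 18 pretreated members were called. No background share is given for the block fit. In a fit of only the arrays of the comparison, chosen for the block after the data were seen, 1 pretreated member was called with the replicate block and 0 without it. Within each slide the median change was −0.64, −0.33 and −0.34 in naive and −0.78, −0.54 and −1.13 in pretreated cells, so that every slide showed a fall. From 20 to 40 min 34 of 48 naive members were called lower (background 14.1%), with a median change of −1.20, and 30 of 45 pretreated members (66.7%, background 15.4%), with a median of −1.33. The pretreated count from 10 to 20 min was 22 or 24 without 10 min replicate 3 or 20 min replicate 2, and 0 or 1 without 10 min replicate 1 or 2 or 20 min replicate 3. The naive call, UTP22, was lost without any single array except 20 min replicate 3. From 20 to 40 min the naive count was 7 without 40 min replicate 2, and 0 or 4 without the first or the second replicate of every group. The pretreated count from 20 to 40 min was 19 or 16 without 20 min replicate 1 or 2, and 14 without 40 min replicate 1. It was 0 without the first and 15 without the second replicate of every group, and 0 in a fit of only the arrays of the comparison. With the spread of all arrays equalised none of these changes was called.

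In NaCl the processome transcripts were lowest at 30 min and nearer to the untreated level at 45 and 60 min. The single 15 min array had a member median of −0.87, the 30 min arrays −2.56 and −2.05, the 45 min arrays −0.92 and −0.95, and the single 60 min array −0.96. The lowest mean was at 30 min for 46 of 49 members and at 15 min for the other 3. At 30 min 43 of 44 members were lower (97.7%, background 27.8%), with RRP7 the exception, and at 45 min 33 of 47 were lower (70.2%, background 19.4%). The count at 45 min was 20 without replicate 1 and 15 without replicate 2 of that group, and 12 and 13 without the first and the second replicate of every group. No member was higher at either time.

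NSR1 read −4.83 and −4.46 at 30 min (mean −4.64 ± 0.35, SE; adjusted p = 3e-10), the second lowest of 4986 genes tested, and −1.86 at 60 min. KRE33 read −3.77 and −3.58 at 30 min and −1.39 and −1.59 at 45 min. RRP5, which acts in assembly of both subunits, read −4.06 and −2.91 at 30 min and −1.74 and −1.93 at 45 min. The 45 min arrays lay above the 30 min arrays for all 3 genes. These had the lowest means at 30 min among the members tested, a choice that favours higher values at 45 min. The share of all genes without overlap is not given. UTP22 read −1.10 on the 15 min array, −0.86 and −0.90 at 30 min and 0.02 and −0.16 at 45 min. Its value at 30 min (−0.88 ± 0.18, SE; adjusted p = 0.0003) passed, and that at 45 min did not (adjusted p = 0.8). RRP3 fell in NaCl, at −1.45 and −1.15 at 30 min (−1.30 ± 0.28, SE; adjusted p = 0.00049).

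From 30 to 45 min 19 of 42 members rose (45.2%, background 6.87%), none fell, and the median change was 1.37. NSR1 rose by 2.21 (adjusted p = 0.0059), KRE33 by 2.18 (adjusted p = 0.0018) and RRP5 by 1.65 (adjusted p = 0.01). The calls covered 5 of 6 UTP-A genes, 4 of 6 UTP-B genes, both tested genes of the Nop14, Noc4 and Emg1 group and 5 of 11 other factors. Not every member moved, since KRR1 read −2.73 and −1.46 at 30 min and −2.26 and −1.68 at 45 min, which overlap. The count was 4 without NaCl 30 min replicate 1, 3 without NaCl 45 min replicate 1 and 11 without NaCl 45 min replicate 2, and 0 or 5 without the first or the second replicate of every group. It was 2 with the spread of all arrays equalised, 31 in a fit of only the arrays of the comparison and 32 with slide as a random block.

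After 240 min of recovery the processome transcripts were near the untreated level. The member medians were 0.14, −0.30 and 0.06 on the 3 arrays of cells recovered from NaCl, and 0.08, −0.18 and −0.04 on the 3 mock arrays. Replicate 2 was the lowest in both groups. No member passed in either group or in the difference between them by limma, and none had an unadjusted p under 0.05. Over all genes the share called lower was 0.0% in all 3 comparisons, with 473, 206 and 45 genes at an unadjusted p under 0.05. NOP1 read 0.23, 0.15 and 0.16 after NaCl and 0.14, 0.07 and 0.09 after the mock treatment, and UTP22 −0.07, 0.06 and −0.01 against −0.04, −0.04 and −0.16. On NaCl replicate 2 some members lay lower than on the other arrays of that group, as with BMS1 at −0.15, −0.94 and −0.05.

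Other members can be followed by role through the late H2O2 arrays and the 30 min NaCl arrays, where each was called lower whenever it was tested. In the U3 particle NOP58, a core box C/D protein, read −2.15 and −2.23 at 40 min in naive cells, −3.63 and −2.73 in pretreated cells and −3.18 and −2.27 in NaCl. RRP9, which binds U3 itself, read −2.25 and −2.03, −2.67 and −3.02, and −1.41 and −1.47 on the same arrays. For RRP9 both NaCl arrays thus lay above all 4 of the late H2O2 arrays, while for NOP58 they lay within their range. In UTP-A, NAN1 read −1.24 and −2.27 in naive cells, −2.46 and −2.39 in pretreated cells and −2.95 and −2.75 in NaCl, and was lower in NaCl than on every one of those H2O2 arrays. IMP3, the Mpp10 partner that contacts the U3 pairing, read −2.48 and −2.76 in naive cells, −3.61 on the single pretreated array with a value, and −3.16 and −2.47 in NaCl.

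The enzymes of the later steps varied in the same comparison. BMS1, the GTPase, read −1.41 and −2.34 in naive, −2.58 and −1.89 in pretreated cells at 40 min and −2.31 and −2.72 in NaCl, with overlap between all 3. ECM16, the helicase that frees U3 from the precursor, read −1.01 and −1.54, −2.73 and −2.43, and −2.06 and −2.12, so that the 3 groups did not overlap. ROK1, a DEAD-box helicase, read −0.83 and −1.65, −2.77 and −2.03, and −2.90 and −1.92. Its pretreated and NaCl arrays overlapped, and both lay below the naive arrays. UTP30, a processome protein, read −1.69 and −1.92, −1.94 and −2.20, and −1.79 and −0.96.

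**Figure D4:**
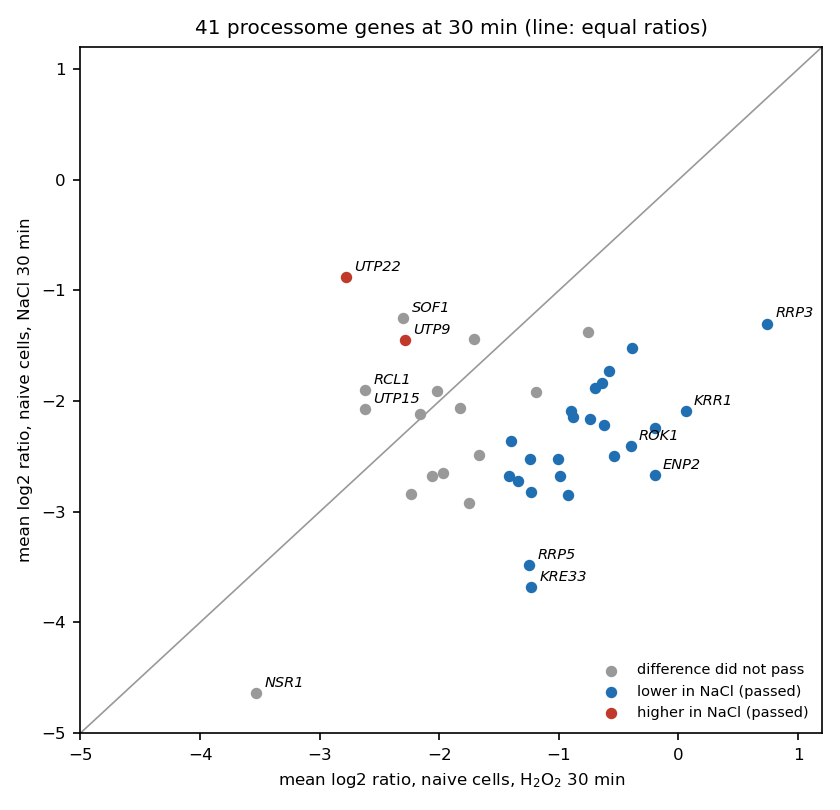
Each point is 1 of the 41 members tested in both stresses, as its mean log2 ratio over 2 arrays after 30 min in NaCl (vertical axis) and after 30 min of H2O2 (horizontal axis), with equal values on the line. The 24 members called lower in NaCl (blue) lie below the line, UTP22 and UTP9 (red) lie above it, and grey members did not pass.

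Both stresses were measured at 30 min against untreated cells, and their difference was tested directly. Of 41 members 24 were lower in NaCl than in H2O2 (58.5%, background 24.8%) and 2 were higher (4.88%, background 20.3%), with a median difference of −1.18 against −0.10 over all genes. The largest differences were those of ENP2 (−2.47 ± 0.49, SE; adjusted p = 0.00065), KRE33 (−2.44 ± 0.42; adjusted p = 8.1e-05) and RRP5 (−2.24 ± 0.40; adjusted p = 0.00012). ENP2, a processome protein that pairs with Bfr2, read −3.21 and −2.13 in NaCl and −0.05 and −0.35 in H2O2. RRP3 read −1.45 and −1.15 against 0.67 and 0.80 (−2.04; adjusted p = 0.00033). ENP2, KRR1 and RRP3, which were never called lower under H2O2 in naive cells, were thus low in NaCl on both arrays.

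The genes on the other side were UTP22 and UTP9. UTP22 was 3.72-fold higher in NaCl than in H2O2, at −0.86 and −0.90 against −2.78 and −2.77 (1.90 ± 0.26, SE; adjusted p = 6.5e-06). UTP9 read −1.65 and −1.25 against −2.37 and −2.21 (0.84 ± 0.34, SE; adjusted p = 0.049). Both were among the 7 genes called lower at 10 min of H2O2. NSR1 differed by −1.12 ± 0.49 (SE; adjusted p = 0.067) and did not pass. The count of 26 was 13 without NaCl 30 min replicate 1, 15 without naive 30 min replicate 1 and 17 without naive 30 min replicate 2, and 4 without the first replicate of every group. With the spread of all arrays equalised it was 13. Time courses differ between the stresses, so a comparison at one time does not compare their full depth.

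The members were set beside lists of related genes. As background, 33.4% of all genes tested were lower at 40 min of H2O2 in naive cells and 33.5% in pretreated cells. The background was 27.8% lower for NaCl at 30 min and 9.5% lower for pretreated minus naive at 40 min. After 40 min of H2O2 in naive cells 13 of 16 other processome proteins (median −1.47), 10 of 14 later 40S factors (median −0.95), 59 of 63 large-subunit assembly genes (median −1.76) and all 4 H/ACA particle genes (median −2.11) were lower. In pretreated cells at 40 min the counts were 15 of 15, 8 of 12, 61 of 61 and 4 of 4, with medians of −2.06, −1.59, −2.70 and −3.05. After 30 min in NaCl they were 14 of 15, 9 of 12, 58 of 59 and 4 of 4, with medians of −1.81, −1.77, −2.39 and −2.26. For pretreated minus naive at 40 min 1 of 15 other processome proteins (median −0.72), 2 of 12 later 40S factors (median −0.29), 16 of 58 large-subunit genes (median −0.86) and 1 of 4 H/ACA genes (median −0.95) were lower.

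Among regulators of these genes, SFP1, a transcription activator of ribosome biogenesis genes, read −1.29 at 10 min (adjusted p = 3.2e-07), −1.11 at 20 min and 0.06 at 40 min (adjusted p = 0.77) in naive H2O2, and 0.60 after 30 min in NaCl (adjusted p = 0.0042). The SFP1 transcript was thus higher in NaCl than in H2O2 at 30 min (1.09; adjusted p = 0.00082). IFH1, a coactivator of ribosomal protein genes, read −3.42 at 20 min (adjusted p = 1.4e-07). TOD6, a repressor that binds the PAC promoter element, read −1.26 in naive and −2.67 in pretreated cells at 20 min, and −2.86 after 30 min in NaCl. DOT6, the paralog of Tod6 that binds the same element, was higher at 20 min in naive (0.53; adjusted p = 0.024) and pretreated cells (0.81; adjusted p = 0.00098). STB3, a repressor that binds the RRPE element, was higher at 40 min in naive cells (1.22; adjusted p = 2.5e-05) and after 30 min in NaCl (0.71; adjusted p = 0.0055). SCH9 was lower at 40 min in naive cells (−1.82; adjusted p = 1.4e-07) and after 30 min in NaCl (−0.82; adjusted p = 0.0021). At 40 min in naive cells FHL1 was lower (−1.08; adjusted p = 0.00044) and RPD3 did not pass (0.34; adjusted p = 0.084). The times given for each regulator are a choice from those measured. These are transcript levels and do not measure the activity of the factors.

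On the second design each condition had 1 array, so these values have no replicate check and no test. The H2O2 and NaCl arrays of BY4741 were read against untreated BY4741. The 4 H2O2 arrays of the nup42 deletion strain were read against that strain after pretreatment and recovery, and its unstressed array against untreated BY4741. Its NaCl array is labelled as read against pretreated and recovered BY4741, a different reference from that of the BY4741 NaCl array, and whether this label is right could not be settled from the labels. A 2-fold change is used below to count genes.

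In BY4741 the naive member median was −0.41 at 10 min and −0.57 at 20 min, with 1 and 10 of 50 members at least 2-fold lower (2.9% and 3.79% of all genes). The pretreated median was −0.65 at 10 min and −2.02 at 20 min, with 3 and 47 of 50 at least 2-fold lower (4.9% and 15.3% of all genes). Pretreated minus naive was −0.29 at 10 min, with no member at least 2-fold lower (2.55% of all genes), and −1.36 at 20 min, with 38 of 50 (9.05% of all genes). At 20 min NSR1 read −4.68 in pretreated and −1.94 in naive cells, the largest difference (−2.74), and RRP7 read −0.13 and −0.31. Both conditions were read here against untreated BY4741, so this is a difference in level. The median level difference of the first design at 20 min, −0.79, had the same sign.

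In the strain lacking NUP42 the naive medians were 0.05 and −0.18 at 10 and 20 min, with 0 and 6 of 50 members at least 2-fold lower (1.66% and 4.62% of all genes). The pretreated medians were −0.18 and −0.74, with 1 and 16 members (1.15% and 4.31%). Pretreated minus naive was −0.27 at 10 min and −0.53 at 20 min, with no member at least 2-fold lower at either time (1.67% and 1.59% of all genes), and at 20 min it ranged from −0.82 for UTP6 to 0.02 for UTP22. NOP1 read −1.17 in naive and −1.35 in pretreated cells of this strain at 20 min, against −1.29 and −2.56 in BY4741. EMG1 read −1.01 and −1.16, against −0.99 and −2.59 in BY4741. These differences, −0.18 and −0.15, were smaller than the median of the members. KRE33 read 0.10 and −0.57, a difference of −0.67, against −0.18 and −1.63 in BY4741, and BFR2 and UTP14 differed by −0.77 and −0.68 in the deletion strain. With 1 array for each and different references, the difference between strains was not tested.

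**Figure D5:**
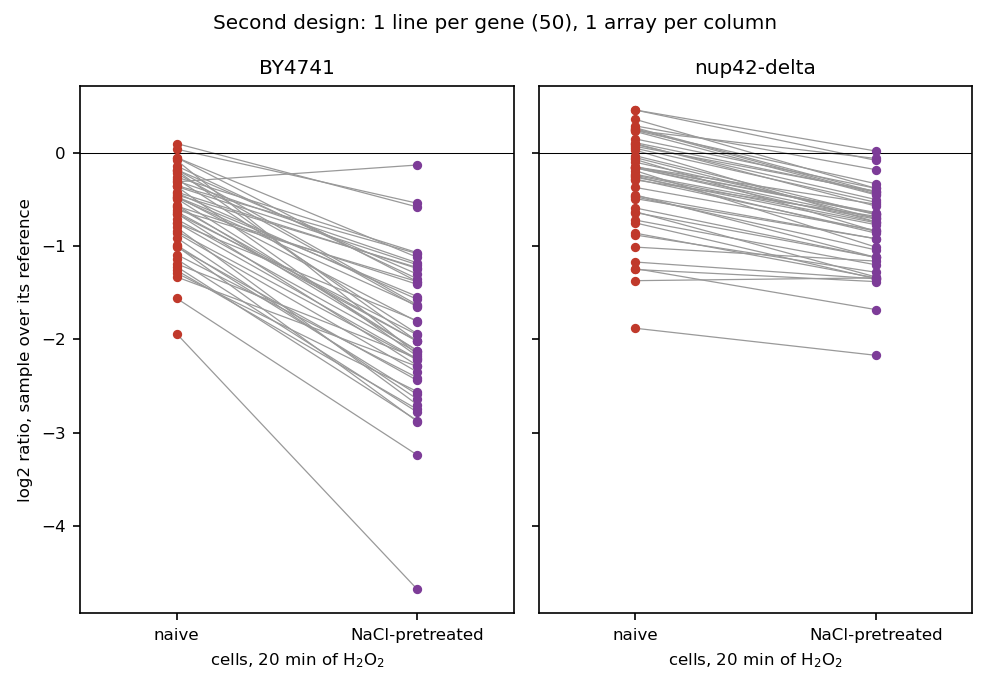
Log2 ratios of the 50 members (vertical axis) after 20 min of H2O2 in naive (red) and pretreated (purple) cells, with a line for each gene and 1 array for each column, in BY4741 (left) and the strain lacking NUP42 (right). The lines fall more steeply in BY4741 (median difference −1.36) than in the deletion strain (median difference −0.53), and in BY4741 the line of RRP7 rises.

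Without stress, the deletion strain read lower than BY4741 for 49 of 50 members, with a median of −0.51, and NSR1 (−1.12) was the single member at least 2-fold lower (1.22% of all genes were). After 30 min in NaCl the medians were −2.77 in BY4741 and −2.44 in the deletion strain, with 49 of 50 members at least 2-fold lower in each (18.2% and 16.3% of all genes). RRP7 was the exception in both, at −0.20 and −0.08. NSR1 read −5.89 and −5.75, KRE33 −3.11 and −2.68, and UTP22 −1.40 and −1.36. SAS10, a processome protein measured on this design alone, read −2.67 and −2.06.

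Where a BY4741 condition was measured on both designs, the 49 shared members were compared. The first-design means and the second-design values had a Pearson correlation of 0.535 at 10 min of naive H2O2, 0.814 at 20 min and 0.875 after 30 min in NaCl (Spearman 0.506, 0.746 and 0.821). The sign was the same for 31, 48 and 48 of 49 members. These are correlations across genes, which are not independent replicates.

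Over all 10 stress groups tested on the first design, 29 members could be tested every time, and 4 of them, DIP2, NOP1, NSR1 and SNU13, were lower in all 10. UTP21 was lower in all 9 groups in which it could be tested. The share of all genes lower in every group is not given, so these counts have no background. RRP7 was lower in none of the 9 groups in which it could be tested, with single arrays between −0.55 and 0.31 on the first design and between −0.31 and 0.24 on the second. RRP3 was the single member ever called higher.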

How the data were processed

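The data were 2-colour spotted arrays of total RNA, extracted with hot phenol and labelled indirectly through amino-allyl-dUTP, per the labels' protocols. The values used are the log2 ratios deposited by the authors, 1 per gene and array. The base of the log is read as 2 from the range of the values, and the direction (sample in channel 2 over reference in channel 1) is taken from the channel labels. NUP42 in the strain lacking it was checked against that direction. Nothing in the sources used here says how the arrays were scanned, background-corrected, filtered or normalized. Deposited ratios carry no signal intensity, so the precision comes from the arrays alone. The labels describe no dye swap, so a gene's own dye bias would stay in each ratio and cancel in a difference between groups.

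Ratios were not changed for the fit. Group means over all 32 first-design arrays were fitted with limma 3.58.1 in R 4.3.3 (lmFit, eBayes), after a test on simulated data, and a gene was tested where each group compared had a value on 2 or more arrays. Calls used a two-sided adjusted p under 0.05 (Benjamini-Hochberg over all genes tested) in 25 comparisons, each refitted in 7 other ways and with arrays left out. Genes were named from locus tags, which matched 5457 and 5984 rows. The labels do not say that replicates were separate cultures, so p-values measure the spread between these arrays, which may be technical. No 2 arrays were identical. The 10 and 20 min arrays of a replicate share a slide by their names, and their deviations from the group means correlated at 0.426, 0.310 and 0.507 in naive and at 0.378, 0.342 and 0.610 in pretreated cells, so replicate numbers pair these samples. Between naive and pretreated arrays of equal number the correlations were 0.030, −0.030 and 0.379 at 10 min and 0.185, 0.034 and 0.558 at 20 min, so these numbers were not taken as pairs.

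The members and gene lists were chosen with earlier results of these data known. Members are named in the text by role, as the 5 lowest or 5 highest of a comparison, as the 5 largest called differences between pretreated and naive cells, or because they passed against the majority. Genes singled out beyond that, such as UTP7, IMP4, SAS10 and UTP20, were chosen after their values were seen.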

Additional observations from a re-analysis of the deposited data

Results flagged for a closer look

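The H2O2 responses of pretreated and naive BY4741 differed by limma's test of the difference (adjusted p under 0.05) for 11 gene and time pairs that the naming rule covers. At 20 min these were SOF1 (−1.44) and EMG1 (−0.96), given as the log2 response of pretreated minus naive cells. At 30 min they were KRE33 (−1.48), NOC4 (−1.29), SNU13 (−1.24) and EMG1 (−1.21). At 40 min they were UTP10 (−1.92), RRP3 (−1.79), BFR2 (−1.68), NOP14 (−1.54) and KRE33 (−1.53). All were lower in pretreated cells. EMG1 passed at 20, 30 and 40 min, and KRE33 and NOC4 passed at 30 and 40 min. The 40 min calls of EMG1 (−0.78; adjusted p = 0.045) and NOC4 (−1.38; adjusted p = 0.0097) are outside the pairs listed here.

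None of these calls was made once the spread of all arrays was equalised, and the array SDs over all genes were larger in pretreated than in naive cells at 40 min (1.44 and 1.46 against 1.26 and 1.35). The UTP10 difference rests on 2 pretreated arrays that read −3.13 and −5.67.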

How the results depend on the processing

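Counts below are members called, without the share of all genes called in the same fit. Centring arrays on their medians moved no count by over 1.5 times. With the spread of all arrays equalised the counts were 14 for naive H2O2 at 10 min, 0 for pretreated minus naive at 20, 30 and 40 min, 0 for the 20 minus 10 and 40 minus 20 min changes in both conditions, 1 and 3 for cells recovered from NaCl and from mock treatment, 2 for NaCl 45 minus 30 min and 13 for NaCl minus naive H2O2 at 30 min. With only the arrays of the comparison they were 14 for pretreated H2O2 at 10 min, 0 for pretreated minus naive at 20, 30 and 40 min, 0 for both 20 minus 10 min changes, 0 for pretreated 40 minus 20 min and 31 for NaCl 45 minus 30 min. With print series as a block they were 13 for naive H2O2 at 10 min, 15 and 10 for pretreated minus naive at 20 and 30 min, 16 for the level difference at 20 min, and 3 (naive) and 20 (pretreated) for 20 minus 10 min. With slide as a random block (correlation 0.5262) they were 4 and 9 for pretreated minus naive at 20 and 30 min, 12 and 34 for naive and pretreated 20 minus 10 min, and 32 for NaCl 45 minus 30 min. With the replicate block they were 12 and 8 for pretreated minus naive at 20 and 30 min, 1 for the level difference at 20 min, and 2 and 18 for naive and pretreated 20 minus 10 min, where the numbers pair the samples. The block moved no other count by over 1.5 times. A replicate block with only the arrays of the comparison, chosen after seeing the data, gave 1 for pretreated 20 minus 10 min.

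With the fit restricted to the 2407 genes that had a value on every array, 27 members among them, the counts were 4, 17, 21 and 26 for naive H2O2 at 10, 20, 30 and 40 min, 15, 25, 25 and 27 for pretreated H2O2, 4 and 7 for pretreated minus naive at 20 and 30 min, 2 for naive 20 minus 10 min, 19 for pretreated 40 minus 20 min, and 27 and 20 for NaCl at 30 and 45 min.

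Leaving out 1 array or replicate number gave 1 to 6, 18 to 28, 19 to 32 and 37 to 43 for naive H2O2, 10 to 29, 38 to 40, 33 to 41 and 44 to 46 for pretreated H2O2, and 0 to 1, 0 to 26, 0 to 10 and 0 to 17 for pretreated minus naive. It gave 0 to 11 for the level difference at 20 min, 0 to 3 and 0 to 40 for naive 20 minus 10 and 40 minus 20 min, 0 to 24 and 0 to 42 for the same changes in pretreated cells, 38 to 47 and 12 to 20 for NaCl at 30 and 45 min, 0 to 15 for NaCl 45 minus 30 min and 4 to 22 for NaCl minus naive H2O2 at 30 min. Where this left 1 array in a group, that array was assumed to vary like the others. Of 8387 values of single named genes under these alternatives, 7573 kept their direction and side of the threshold, 577 lost the call, 237 gained one and 0 changed direction as called values. The causes of these shifts were not tested. On the second design, counting past 1.5-fold in place of 2-fold gave 14 members for the unstressed deletion strain. It gave 12 and 23 for naive and 31 and 47 for pretreated BY4741 at 10 and 20 min, 2 and 13 for naive and 5 and 34 for pretreated cells of the deletion strain, and 49 for both NaCl arrays. Promoter motifs were not counted here.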
